A study of Mus musculus with 9 samples.

Results

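The genes described here carry out the synthesis, elongation and desaturation of fatty acids and the assembly of triglycerides. They were taken from a list of 35 gene symbols, each measured by 1 probe set (a group of array probes for 1 transcript), the one with the highest mean over the 9 arrays. Of the 35 genes, 34 had a probe set with a single symbol, among 18193 genes in all, and levels of Gk, glycerol kinase, were not analysed here. The samples were total RNA of NIH-CAR cells, a clone of the NIH-3T3 mouse fibroblast line made to express the coxsackie-adenovirus receptor CARΔ1, which lets adenovirus enter. All 3 groups were at passage 12, were exposed to adenovirus for 2 h and had 3 Affymetrix expression arrays each.

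The A/B-deleted group carried AdHA-PPARgCDE, which encodes HA-tagged PPARγ without its A/B-domain, and was given 1 µM rosiglitazone. The full-length group carried AdHA-PPARg2, which encodes HA-tagged full-length PPARγ2, and was also given 1 µM rosiglitazone. The empty-vector group carried AdEmpty and was given the vehicle, DMSO. Receptor and agonist thus differed together between each receptor group and empty vector, so their shares in a difference cannot be told apart. All cells came from 1 clone with a receptor supplied by virus, and p-values measure the spread between these arrays. The title of the study points to a role in transactivation that differs between genes for the A/B-domain, the N-terminal part of the receptor with a ligand-independent activation function.

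Cytosolic acetyl-CoA is carboxylated to malonyl-CoA and built into palmitate, which elongases lengthen and desaturases furnish with double bonds. The acyl chains are then attached in turn to glycerol 3-phosphate, phosphate is removed, and a last acylation gives triglyceride. In adipocytes this pathway fills the lipid droplet, and SREBP-1 and ChREBP are its best known transcriptional regulators. PPARγ, a nuclear receptor, drives cells to become adipocytes, and rosiglitazone is a synthetic ligand that activates it.

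Levels and differences are log2 values throughout, and arrays are given in the order of their numbers 1, 2 and 3. The probe set of Pparg read 10.74, 12.01 and 11.26 with the A/B-deleted receptor, 10.70, 12.22 and 10.84 with the full-length receptor, against 7.01, 6.99 and 7.17 with empty vector. Fabp4, an adipocyte fatty acid binding protein and known PPARγ target, read 12.89, 13.15 and 11.04 with the A/B-deleted receptor, 13.50, 13.63 and 13.13 with the full-length receptor, against 6.03, 6.02 and 5.39 with empty vector. The arrays numbered 3 stood apart in their 18S control probe sets, which averaged 8.06, 7.59 and 8.67 with the A/B-deleted receptor, the full-length receptor and empty vector, against 10.51 to 12.44 on the other 6 arrays. Same-numbered arrays varied together between A/B-deleted and empty vector and between the receptors. The median standard error (SE) of a difference was 0.158, and precision was limited by having 3 arrays in each group.

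Fads3 was the 1 member of 34 called higher in either receptor group, by 1.16 with the A/B-deleted and by 1.34 with the full-length receptor against empty vector. A gene was called when its Benjamini-Hochberg adjusted p in limma, over all 18193 genes, was under 0.05. The other 33 members were not called, among them Fasn, Acly, Scd1, Srebf1 and Dgat1, and no member was called lower. The full-length call held in all 18 alternative settings and the A/B-deleted call was lost in 10 of 18. Over all genes 0.17% were called in the A/B-deleted comparison (31 genes) and 0.654% in the full-length comparison (119 genes). At an unadjusted p under 0.05 there were 2 members, Fads3 and Agpat3, in the A/B-deleted comparison, 5.88% of those measured beside 3.79% of all genes (689 genes). There were 4 members, Acaca, Fads3, Agpat3 and Dgat2, in the full-length comparison, 11.8% beside 6.19% of all genes (1127 genes).

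The median difference of the 34 members was 0.08 with the A/B-deleted receptor, beside -0.03 over all genes, with 22 members above 0 and 12 below. With the full-length receptor it was 0.09, beside 0.00 over all genes, again with 22 above 0 and 12 below. These comparisons share the empty-vector arrays. The 95% interval of the difference lay within 1 log2 unit either side of 0 for 32 members in the A/B-deleted comparison, with Fads3 and Gpat3 the exceptions. It did so for 31 members in the full-length comparison, with Fads3, Gpat3 and Dgat2 the exceptions. With the array number as a block, 166 genes (0.912%) were called in the A/B-deleted comparison, and Fads3 was the 1 member among them. In that fit 8 members, 23.5%, had an unadjusted p under 0.05, beside 9.84% of all genes. They were Acaca, Me1, Scd1, Fads3, Gpam, Agpat3 and Dgat2, with positive differences, and Gpd2, with a negative one. Every same-numbered difference from empty vector was positive for 12 members, 35.3% beside 14.8% of all genes, and negative for 4, 11.8% beside 19.0%.

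**Figure D1:**
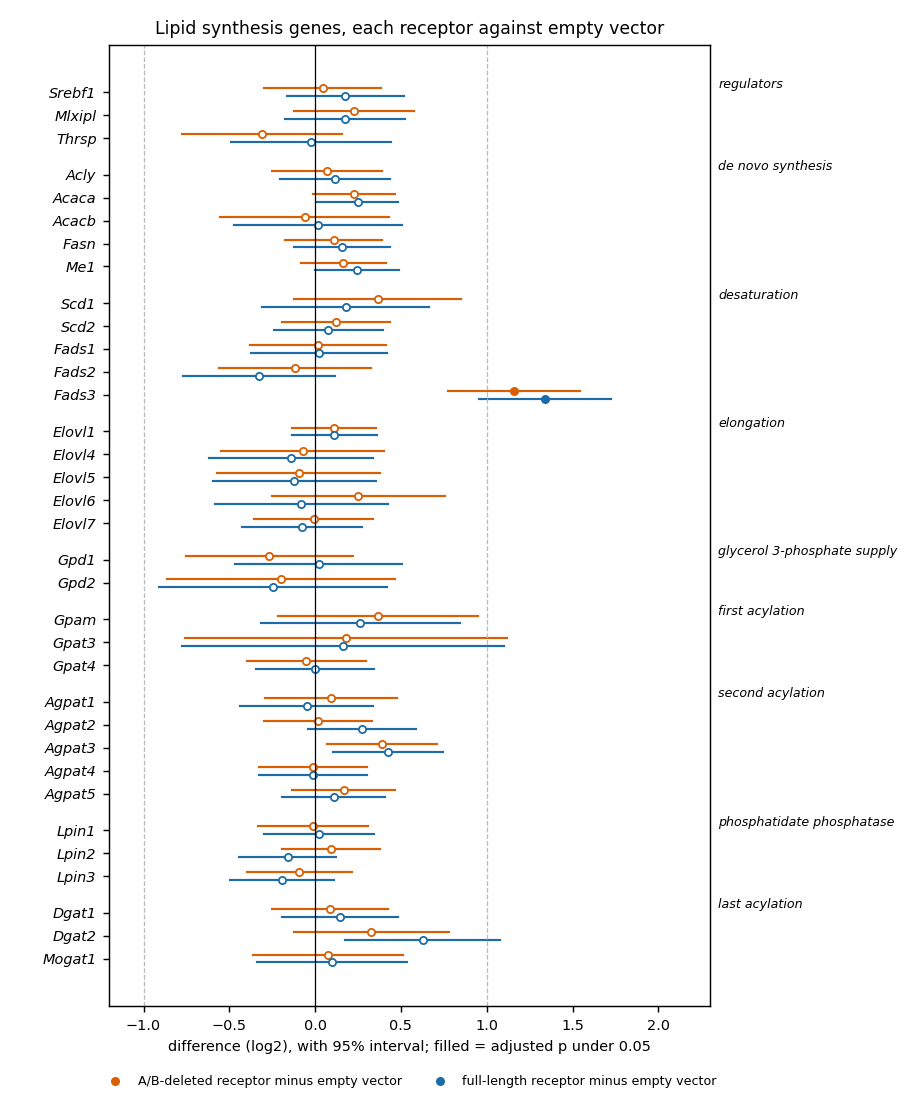
Differences from empty vector for the 34 measured members, grouped by pathway step, with the A/B-deleted receptor (upper, orange) and the full-length receptor (lower, blue); the horizontal axis is log2 and lines are 95% intervals. Filled points, adjusted p under 0.05, appear for Fads3 only, at 1.16 and 1.34.

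Fads3 belongs to the fatty acid desaturase family and lies on chromosome 19 near Fads2, and its human counterpart has been described as acting on the sphingoid base of ceramides. It read 10.98, 11.30 and 10.68 with the A/B-deleted receptor, 11.19, 11.36 and 10.95 with the full-length receptor, against 9.85, 9.74 and 9.90 with empty vector. Every array of both receptor groups was above every empty-vector array, and the receptor groups overlapped each other. Means were 10.99 ± 0.31 with the A/B-deleted receptor, 11.17 ± 0.20 with the full-length receptor and 9.83 ± 0.08 with empty vector (SD, n = 3 each).

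Against empty vector Fads3 was 2.23-fold higher with the A/B-deleted receptor (95% interval 1.71 to 2.91, limma adjusted p = 0.0380, SE 0.17 on the log2 scale). With the full-length receptor it was 2.53-fold higher (95% interval 1.94 to 3.30, limma adjusted p = 0.00822, SE 0.17). The differences between arrays of the same number were 1.13, 1.56 and 0.78 for the A/B-deleted receptor and 1.35, 1.62 and 1.05 for the full-length receptor. In both receptor groups array 2, which also had the highest Pparg, had the highest Fads3. Array 3 had the lowest Fads3, while Pparg was lowest on array 1 in both. In empty vector the order of Fads3 was the reverse, with array 3 highest and array 2 lowest.

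The call for the full-length receptor was kept in all 18 alternative settings, at 1.24 to 1.55 with adjusted p from 0.00494 to 0.0497. The call for the A/B-deleted receptor was lost in 10 of 18, at 1.00 to 1.35 with adjusted p from 0.0226 to 0.247. It was lost without A/B-deleted array 1 (adjusted p = 0.203) or 2 (0.144), without full-length array 1 (0.0916) or 2 (0.0644), and without empty-vector array 1 (0.173), 2 (0.247) or 3 (0.119). It was also lost after median subtraction (0.0629), after quantile normalization (0.0510) and with only the 6 arrays compared (0.0818). It was kept with the array number as a block (0.0277).

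The gene was measured by 3 probe sets. The 2 not used above read differences of 1.47 and 1.42 with the A/B-deleted receptor and of 1.71 and 1.59 with the full-length receptor. Adjusted over all probe sets with a single symbol, the full-length receptor gave 0.0109 for the probe set used and 0.00725 and 0.0182 for the others, so all 3 passed. The A/B-deleted receptor gave 0.0556 for the probe set used and 0.0347 and 0.0861 for the others, so 1 passed. Of 51 other probe sets of the 27 members with several, these 2 of Fads3 were the only ones called in any of the 3 comparisons.

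The 250 bases before the annotated start of Fads3 are shown because it was the called member, and those of its neighbour Fads2, which was not called, for comparison. Both come from RefSeq on GRCm38.p6, 5′ to 3′ on the gene's strand, with exact CCAAT and GGGCGG matches on either strand in capitals. The Fads3 stretch is chr19:10041298-10041547 on the plus strand and the Fads2 stretch is chr19:10101504-10101753 on the minus strand.
Fads3: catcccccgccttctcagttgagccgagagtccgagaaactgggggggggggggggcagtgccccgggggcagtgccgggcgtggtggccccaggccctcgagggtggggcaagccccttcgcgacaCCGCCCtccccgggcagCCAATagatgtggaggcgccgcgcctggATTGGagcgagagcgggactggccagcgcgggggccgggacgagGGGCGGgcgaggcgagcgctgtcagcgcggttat
Fads2: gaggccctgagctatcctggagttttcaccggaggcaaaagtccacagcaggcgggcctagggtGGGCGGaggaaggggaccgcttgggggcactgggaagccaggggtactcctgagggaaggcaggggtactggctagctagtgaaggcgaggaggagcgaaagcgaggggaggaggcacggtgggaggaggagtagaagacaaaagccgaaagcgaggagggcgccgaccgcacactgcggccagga
The Fads3 stretch is 74.4% G or C. It holds a CCAAT match at -106 to -102 and its reverse complement ATTGG at -78 to -74, counted from the start. It also holds GGGCGG at -34 to -29 and its reverse complement CCGCCC at -123 to -118. The Fads2 stretch is 64.8% G or C and holds 1 GGGCGG, at -186 to -181. AGGTCA, the core site of nuclear receptors, is in neither stretch on either strand.

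A window of this length was available for 27 of the 35 listed genes, Gk included, 38 windows in all, and for 32851 gene starts of the genome. AGGTCA was in 15.8% of the members' windows and 14.0% of all windows. A direct repeat of AGGTCA spaced by 1 base, the arrangement PPARγ binds with its partner RXR, matched with up to 2 mismatches in 5.26% of members' windows, those of Elovl1 and Mogat1, and in 3.24% of all. GGGCGG was in 55.3% and 32.7%, CCAAT in 36.8% and 33.8%, CACGTG, the E-box, in 10.5% and 6.02%, and TCACNCCAC, a sterol regulatory element, in 2.63% and 1.05%. These are matches of letters, searched on both strands with overlaps allowed. Elovl1 and Mogat1 were not called in any comparison.

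Scd1 and Scd2, the stearoyl-CoA desaturases that make monounsaturated fatty acids, overlapped between all groups. Scd1 read 11.53, 11.10 and 11.58 with the A/B-deleted receptor, 11.41, 11.01 and 11.24 with the full-length receptor, against 11.43, 10.63 and 11.06 with empty vector. Its differences from empty vector were 0.36 (95% interval -0.12 to 0.85) with the A/B-deleted and 0.18 (-0.31 to 0.67) with the full-length receptor. Scd2 differed from empty vector by 0.12 and 0.08, with intervals that end at 0.44 and 0.39.

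Fads1 and Fads2 encode the desaturases of polyunsaturated fatty acid synthesis. Fads1 means were 11.27 ± 0.23 with the A/B-deleted receptor, 11.28 ± 0.22 with the full-length receptor and 11.26 ± 0.25 with empty vector (SD, n = 3 each), and both differences from empty vector were 0.02. Fads2 read 10.04, 9.87 and 10.06 with the A/B-deleted receptor, 9.93, 9.40 and 10.02 with the full-length receptor, against 10.33, 9.76 and 10.24 with empty vector. The groups overlapped, with differences of -0.12 (95% interval -0.56 to 0.32) and -0.32 (-0.77 to 0.12) from empty vector.

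**Figure D2:**
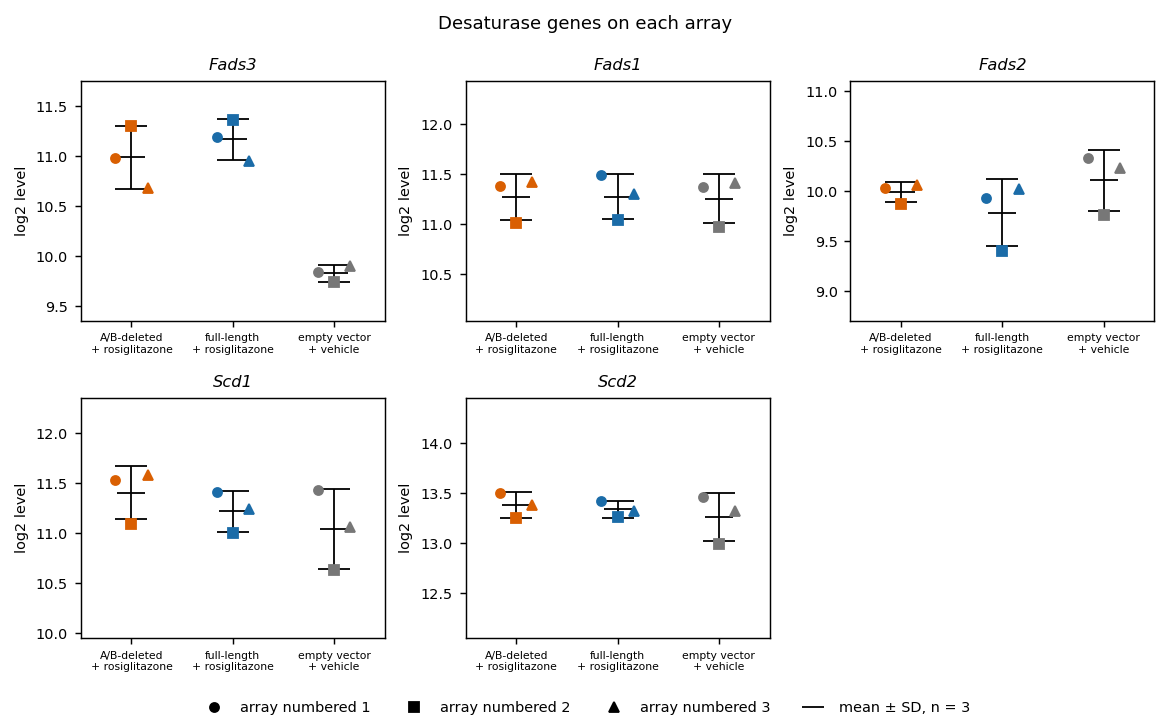
Log2 levels of the 5 desaturase genes on each array, by group from left to right A/B-deleted, full-length and empty vector; symbols give the array number and bars the mean ± SD (n = 3). In Fads3 all receptor arrays, 10.68 to 11.36, lie above the empty-vector arrays, 9.74 to 9.90, while the groups of the other desaturases overlap.

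Among the regulators, Srebf1, which encodes SREBP-1, read 8.78, 9.14 and 8.99 with the A/B-deleted receptor, 9.05, 9.37 and 8.88 with the full-length receptor, against 8.82, 8.96 and 8.99 with empty vector. The groups overlapped, with differences from empty vector of 0.04 (95% interval -0.30 to 0.38) for the A/B-deleted receptor and 0.18 (-0.16 to 0.52) for the full-length receptor. Mlxipl, which encodes ChREBP, differed from empty vector by 0.23 and 0.17. Thrsp, a thyroid hormone responsive gene of lipogenesis, differed by -0.31 and -0.02, and its full-length difference was -0.41 without the arrays numbered 3. None of the 3 regulators was called, and Mlxipl and Thrsp were among 8 members with a mean below 7.34, the lowest median of an array over all genes, along with Acacb, Elovl4, Elovl7, Gpat3, Lpin3 and Mogat1.

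Acaca, acetyl-CoA carboxylase of the cytosol, and Me1, the malic enzyme that supplies NADPH, stood above empty vector by small amounts without being called. Acaca read 10.09, 10.11 and 10.17 with the A/B-deleted receptor, 10.22, 10.02 and 10.18 with the full-length receptor, against 9.97, 9.80 and 9.92 with empty vector. All arrays of both receptor groups were above all empty-vector arrays, by 0.23 (SE 0.11, limma adjusted p = 1.00) with the A/B-deleted and 0.25 (SE 0.11, limma adjusted p = 0.763) with the full-length receptor on average. Its other probe set read 0.27 with the A/B-deleted and 0.03 with the full-length receptor, and the mean of both gave 0.14 with the full-length receptor. Me1 read 9.83, 9.79 and 9.99 with the A/B-deleted receptor, 9.95, 9.86 and 10.04 with the full-length receptor, against 9.68, 9.64 and 9.80 with empty vector. Only the full-length arrays were all above empty vector in Me1, by 0.24 (SE 0.11, limma adjusted p = 0.826), and the A/B-deleted difference was 0.16.

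Such separation in the higher direction was seen for 3 of 34 members with the A/B-deleted receptor, beside 702 of 18193 genes (3.86%). These members were Acaca, Fads3 and Agpat3. With the full-length receptor separation was seen for 5 of 34 members, Acaca, Me1, Fads3, Agpat3 and Dgat2, beside 822 of 18193 genes (4.52%). In the lower direction it was seen for 0 members in either comparison, beside 4.03% of all genes with the A/B-deleted and 4.86% with the full-length receptor.

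Fasn, fatty acid synthase, read 11.95, 11.76 and 11.86 with the A/B-deleted receptor, 11.97, 11.88 and 11.87 with the full-length receptor, against 11.91, 11.53 and 11.80 with empty vector. The groups overlapped, and the 95% intervals of the differences from empty vector were -0.17 to 0.39 with the A/B-deleted and -0.12 to 0.44 with the full-length receptor, well short of 1 log2 unit. Acly, the citrate lyase that makes cytosolic acetyl-CoA, differed from empty vector by 0.07 and 0.11, with intervals of -0.25 to 0.39 and -0.21 to 0.44. Acacb, the mitochondrial acetyl-CoA carboxylase, differed by -0.06 and 0.02. Its full-length difference was -0.38 without the arrays numbered 3, on which the full-length array read 7.40 and the empty-vector array 6.59.

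Of the elongases, none of 5 was called. Elovl6, which lengthens palmitate, read 11.82, 10.90 and 11.19 with the A/B-deleted receptor, 11.15, 10.85 and 10.91 with the full-length receptor, against 11.31, 10.89 and 10.95 with empty vector. A/B-deleted array 1 was the highest of the 9. The A/B-deleted difference from empty vector was 0.25 with that array and -0.01 without it, and the full-length difference was -0.08. Elovl1, an elongase of saturated chains, differed by 0.11 in both comparisons, and Elovl5, an elongase of polyunsaturated chains, by -0.10 and -0.12. Elovl4, which makes very long chains, differed by -0.07 and -0.14, and Elovl7 by -0.01 and -0.08.

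Gpd1 and Gpd2, the cytosolic and mitochondrial glycerol 3-phosphate dehydrogenases, were not called. Gpd1 read 7.62, 7.41 and 7.49 with the A/B-deleted receptor, 7.47, 7.62 and 8.29 with the full-length receptor, against 8.03, 7.51 and 7.78 with empty vector. The groups overlapped, and the differences from empty vector were -0.27 and 0.02. The full-length difference of Gpd1 was -0.23 without full-length array 3. Its other 3 probe sets read 0.08 to 0.18 with the A/B-deleted receptor, and the mean of the 4 gave 0.02. Gpd2 differed by -0.20 (95% interval -0.86 to 0.47) and -0.25 (-0.91 to 0.42). Its same-numbered differences were all negative, at -0.15, -0.29 and -0.15 for the A/B-deleted and -0.16, -0.34 and -0.24 for the full-length receptor. With the array number as a block the A/B-deleted SE was 0.07 (limma adjusted p = 0.417). The 4 probe sets of Gpd2 gave -0.31 to 0.14 with the A/B-deleted receptor.

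Gpam, the mitochondrial enzyme of the first acylation of glycerol 3-phosphate, read 10.01, 10.19 and 9.48 with the A/B-deleted receptor, 9.96, 10.06 and 9.35 with the full-length receptor, against 9.66, 9.80 and 9.12 with empty vector. Array 3 was the lowest in each group and the groups overlapped, while each same-numbered difference from empty vector was positive, at 0.36, 0.39 and 0.35 for the A/B-deleted and 0.31, 0.25 and 0.23 for the full-length receptor. Its average difference was 0.37 (SE 0.26, limma adjusted p = 1.00, and 0.0795 with the array number as a block) with the A/B-deleted and 0.26 (SE 0.26, limma adjusted p = 1.00) with the full-length receptor. The other Gpam probe set read -0.11 with the full-length receptor. Gpat3 and Gpat4, enzymes of the same step in the endoplasmic reticulum, differed by 0.18 and -0.05 with the A/B-deleted and by 0.16 and 0.00 with the full-length receptor. Gpat3 ranged over 1.49 across the 9 arrays, and its A/B-deleted difference was -0.25 without A/B-deleted array 3.

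The enzymes of the second acylation make phosphatidic acid. Agpat3, a member of this family that also acts on other lysophospholipids, read 9.58, 9.37 and 9.14 with the A/B-deleted receptor, 9.57, 9.31 and 9.31 with the full-length receptor, against 9.09 and 8.84 on empty-vector arrays 1 and 2, with empty-vector array 3 between them. All receptor arrays were above all empty-vector arrays, and the differences were 0.39 (SE 0.14, limma adjusted p = 1.00) with the A/B-deleted and 0.42 (SE 0.14, limma adjusted p = 0.463) with the full-length receptor. Its 4 probe sets gave -0.22 to 0.42 with the full-length receptor, and their mean gave 0.15.

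Agpat2, the family member whose loss causes lipodystrophy in humans, read 7.11, 7.46 and 7.30 with the A/B-deleted receptor, 7.31, 7.70 and 7.64 with the full-length receptor, against 7.35, 7.25 and 7.22 with empty vector. The groups overlapped, with differences of 0.02 and 0.27 from empty vector. Agpat1 differed by 0.09 and -0.05, Agpat4 by -0.01 in both comparisons, and Agpat5 by 0.17 and 0.11.

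On the probe sets used, the lipins, which remove phosphate from phosphatidic acid, differed from empty vector by less than 0.20 in both comparisons. Lpin1, the main adipose lipin, had means of 7.79 ± 0.17 with the A/B-deleted receptor, 7.82 ± 0.11 with the full-length receptor and 7.80 ± 0.21 with empty vector (SD, n = 3 each). The other Lpin1 probe set read -0.05 with the A/B-deleted and -0.29 with the full-length receptor, and the mean of both gave -0.13 with the full-length receptor. Lpin2 differed from empty vector by 0.09 and -0.16, and Lpin3 by -0.09 and -0.19. The 4 probe sets of Lpin2 gave -0.15 to 0.26 with the A/B-deleted and -0.16 to -0.02 with the full-length receptor.

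Dgat2, one of the acyltransferases of the last step to triglyceride, read 7.88, 8.27 and 7.89 with the A/B-deleted receptor, 8.07, 8.71 and 8.16 with the full-length receptor, against 7.75, 7.89 and 7.43 with empty vector. The full-length arrays were all above the empty-vector arrays, and the A/B-deleted arrays overlapped them. The difference was 0.33 (SE 0.20, limma adjusted p = 1.00) with the A/B-deleted and 0.63 (SE 0.20, 1.54-fold, limma adjusted p = 0.407) with the full-length receptor. Same-numbered differences were 0.33, 0.82 and 0.73 with the full-length receptor. With the array number as a block, limma adjusted p was 0.364 with the A/B-deleted and 0.0346 with the full-length receptor. The latter was 0.147 with the block but without the arrays numbered 3. Dgat2 was highest on array 2 in each group, as Pparg was in both receptor groups. Its other probe set read 0.06 with the A/B-deleted and 0.38 with the full-length receptor, and the mean of both gave 0.19 with the A/B-deleted receptor. Dgat1, the other enzyme of this step, differed by 0.09 and 0.14, and Mogat1, a monoacylglycerol acyltransferase, by 0.07 and 0.10.

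**Figure D3:**
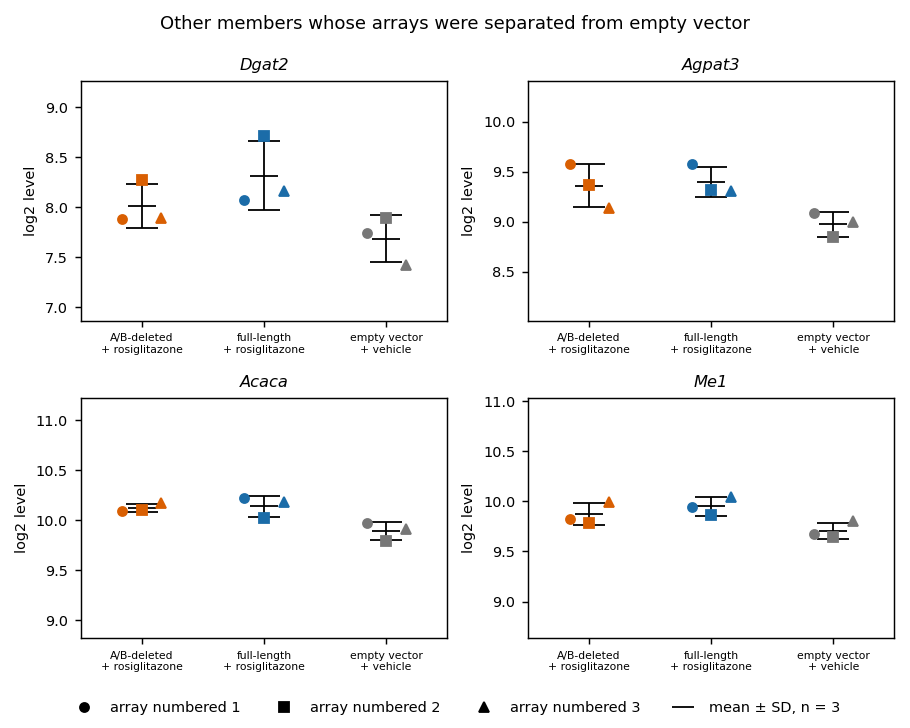
Log2 levels per array of Dgat2, Agpat3, Acaca and Me1, by group from left to right A/B-deleted, full-length and empty vector; symbols give the array number and bars the mean ± SD (n = 3). The full-length arrays of each gene lie above its empty-vector arrays, by averages of 0.63, 0.42, 0.25 and 0.24, and none of these differences was called in the fit without a block.

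Between the receptors, 0 of the 34 members were called in limma, at 0% of all genes, and 0 had an unadjusted p under 0.05, beside 1.52% of all genes (277 genes). With the array number as a block there were 3 at an unadjusted p under 0.05, Elovl6, Lpin2 and Dgat2, which is 8.82% beside 4.32% of all genes, and 0 were called. The SEs and intervals given here come from the fit without the block. The arrays of the receptor groups were separated for 0 members, beside 5.17% of all genes in either direction. The differences, A/B-deleted minus full-length, ran from -0.30 in Dgat2 to 0.33 in Elovl6 with a median of 0.00. The Elovl6 value was 0.06 on the mean of its probe sets, 0.07 without A/B-deleted array 1 and 0.54 without A/B-deleted array 2, and the Dgat2 value was -0.10 without full-length array 2. The 95% interval lay within 1 log2 unit of 0 for all 34 members, and it was widest in Gpat3, at -0.92 to 0.96. These intervals bound the differences and do not show that the receptors act alike.

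For Fads3 the receptor difference was -0.18 (95% interval -0.56 to 0.20), that is 0.882-fold with an interval of 0.676 to 1.15. Its same-numbered differences were -0.21, -0.06 and -0.28, negative on every number. The difference was -0.34 without A/B-deleted array 2, -0.29 without full-length array 3, -0.09 without full-length array 2 and -0.03 without A/B-deleted array 3. For Dgat2 the difference was -0.30 (95% interval -0.75 to 0.15), with same-numbered differences of -0.19, -0.44 and -0.27. Agpat2 had -0.26 (-0.57 to 0.06) and Lpin2 had 0.25 (-0.03 to 0.53). In Agpat2 every same-numbered difference was negative and in Lpin2 every one was positive. The 4 probe sets of Lpin2 gave -0.14 to 0.30, and their mean gave 0.12. The same sign on all 3 numbers was found for 9 members in the higher direction, 26.5% beside 13.6% of all genes, and for 5 in the lower, 14.7% beside 12.4%. The median differences by step were -0.13 for the regulators, -0.05 for de novo synthesis, 0.04 for desaturation and 0.07 for elongation. They were -0.12 for the 2 glycerol 3-phosphate dehydrogenases measured, at -0.29 in Gpd1 and 0.05 in Gpd2. The median was 0.02 for the first and 0.00 for the second acylation, 0.10 for the lipins, and -0.06 for Dgat1, Dgat2 and Mogat1.

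**Figure D4:**
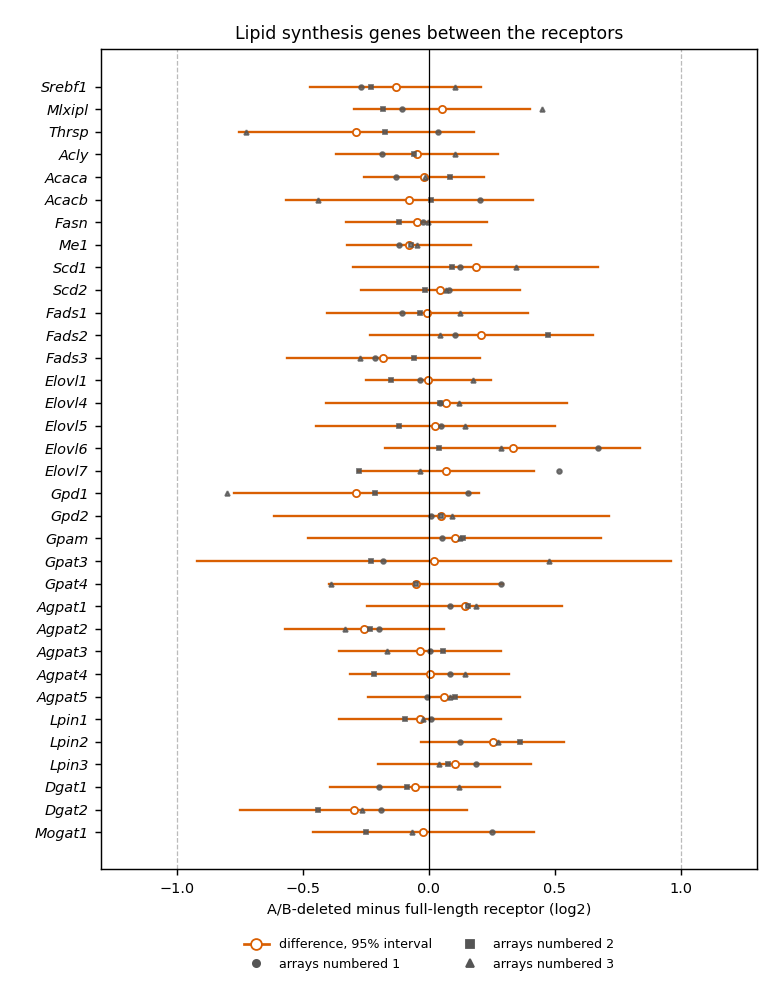
Difference between the receptors, A/B-deleted minus full-length, for the 34 members on the log2 scale, with 95% intervals as lines and the differences of same-numbered arrays as small symbols. All intervals include 0 and end within 1 log2 unit of it, and the means run from -0.30 in Dgat2 to 0.33 in Elovl6.

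Several members had the same order of array numbers in all 3 groups. Array 2 was the lowest of its group in all 3 groups for 11 members, 32.4% of those measured, beside 8.48% of all genes. These were Me1, Scd1, Scd2, Fads1, Fads2, Elovl4, Elovl5, Elovl6, Agpat5, Lpin1 and Gpd2. In Fads1, for example, array 2 read 11.01 with the A/B-deleted receptor, 11.04 with the full-length receptor and 10.97 with empty vector, while the other 6 arrays read 11.30 to 11.49. Array 1 was the highest in all 3 groups for 6 members, 17.6% beside 5.17% of all genes, namely Acly, Fasn, Scd2, Elovl6, Agpat3 and Lpin1.

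Array 3 was highest in all 3 groups for 7 members, 20.6% beside 14.9% of all genes, and lowest for 2, 5.88% beside 14.2%. In Gpd2 array 3 read 9.80 with the A/B-deleted receptor, 9.71 with the full-length receptor and 9.95 with empty vector, above the other 6 arrays at 8.85 to 9.38. Gpam and Lpin2 were the members lowest on array 3, and Gpam, Lpin3 and Dgat2 those highest on array 2. These counts are a description. The design text speaks of separate experiments, and the labels do not say whether a number marks one. Across the 9 arrays the members' median range was 0.60, beside 0.58 over all genes.

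**Figure D5:**
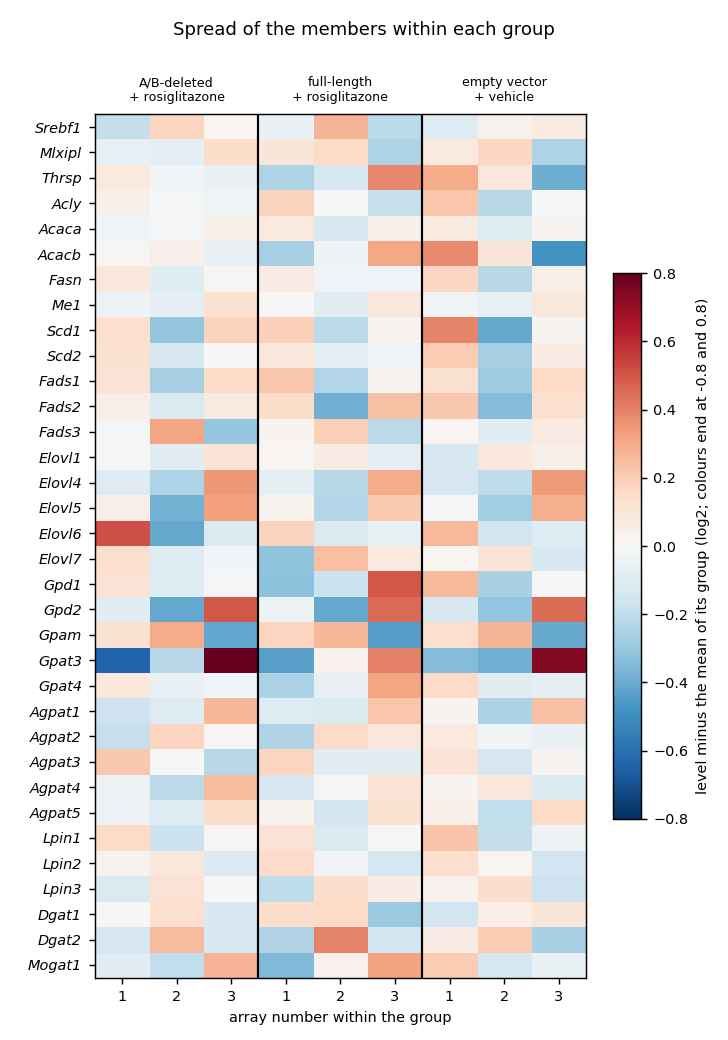
Level of each member on each array minus the mean of its group (log2), with groups from left to right A/B-deleted, full-length and empty vector and array numbers 1 to 3 within each; red is above and blue below the group mean, and colours end at -0.8 and 0.8. The blue columns of array 2 recur in Scd1, Fads1, Fads2, Elovl5 and Gpd2, and array 3 is red in Gpd2 and blue in Gpam in all 3 groups.

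A list of 52 other genes of the pathway, from citrate export and elongation partners to the SREBP machinery, had 49 measured. In limma 0 were called in each of the 3 comparisons, and at an unadjusted p under 0.05 there were 1 for the A/B-deleted receptor, 5 for the full-length receptor and 0 between the receptors, beside 689, 1127 and 277 of all 18193 genes. Their median differences were -0.01, -0.03 and 0.02. Their highest and lowest differences were 0.42 and -0.42 with the A/B-deleted receptor and 0.89 and -0.53 with the full-length receptor.

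The labelled cell type was checked on markers. Of 10 fibroblast markers all were measured and 0 were called, or had an unadjusted p under 0.05, in any comparison, with 9 between 9.69 and 14.27 on every array and Lum between 5.88 and 6.67. Of 10 adipocyte markers 8 were measured, and 7 of those, Adipoq and Lep among them, were called in no comparison. Between the receptors 2 had an unadjusted p under 0.05, Cidec and Adig, beside 277 of all 18193 genes. Both were lower on every A/B-deleted array than on any full-length array, as were 572 of all genes. Adipoq lay between 5.22 and 5.84 on all arrays. The exception was Cidec, a lipid droplet protein, which read 5.59, 6.11 and 5.40 with the A/B-deleted receptor, 7.92, 8.20 and 6.86 with the full-length receptor, against 5.34, 5.19 and 4.93 with empty vector. Cidec rose by 2.51 with the full-length receptor (limma adjusted p = 0.00915), and its A/B-deleted difference was 0.55. Markers of epithelial, leukocyte, endothelial and muscle cells, 20 of 21 measured, had 0 called, and 0 with an unadjusted p under 0.05, in the 3 comparisons. Of these 20, 17 averaged below 7.34, and the exceptions were Csf1r at 9.41 to 10.48, Epcam at 7.48 to 8.94 and Ckm, which reached 7.95. The epithelial markers Krt8 and Krt19 were also lower on every A/B-deleted array than on any full-length array.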

How the data were processed

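Transcripts were measured in 9 arrays, 3 per group, with group and number taken from the sample titles. The table of 45101 probe sets held the authors' log2 values. Per the submitters' processing notes they came from RMA, run in the affy package of R 2.5.0. That the logarithm is to base 2 was inferred from the values, whose antilogs to base 2 were multiples of 0.01 for at least 99.858% of each array. No detection call was given. Array medians ran from 6.68 to 6.90, and 9 values were exactly 0. A step after RMA may have gone unrecorded. Of the probe sets 34945 had 1 gene symbol in the platform annotation and were used, 932 had several, 9160 had none and 64 were controls. For each of 18193 genes the probe set with the highest mean was kept. No column was left out.

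Differences were tested with limma 3.58.1 in R 4.3.3 (lmFit, contrasts.fit, eBayes, two-sided) in 1 fit over 9 arrays with no block, leaving 6 residual degrees of freedom, and Benjamini-Hochberg adjustment over all genes. The fit was tested on simulated data. Correlations of same-numbered arrays' deviations from their group means were 0.520 to 0.708 between A/B-deleted and empty vector and 0.297 to 0.531 between the receptors, so these numbers pair the arrays. The reported SEs, intervals and p-values still leave the pairing out unless the block is named. For these paired comparisons blocked values stand beside counts of members at a p-value threshold where they change them. Counts of intervals within 1 log2 unit are given without the block only. For the full-length comparison with empty vector, blocked counts are given only under the dependence on processing. Between full-length and empty vector these correlations were -0.121 to 0.631, and the numbers were not taken as pairs there. Pairing in the other comparisons would imply pairing here too, so the full-length p-values without the block may leave a pairing out. Python 3.11.15 with numpy 2.4.6 and pandas 2.3.3 was used for tables, and matplotlib 3.10.9 for figures. Every measured member is named, Pparg and Fabp4 serve as checks, and other pathway genes and markers are named where called. Uncalled markers were named after their values were seen. The members, lists and alternatives were chosen with earlier results of these data known. Alternatives covered scaling, probe set choice, a filter on low levels, a variance trend, the arrays fitted, the block and each array left out.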

Additional observations from a re-analysis of the deposited data

How the results depend on the processing

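Of 1962 recomputed member differences, 1950 kept their side of the threshold with no called value reversed, 11 lost a call, all of them Fads3 with the A/B-deleted receptor, and 1 gained one. Among values called in neither setting 209 changed sign. In the A/B-deleted comparison with empty vector, 31 genes were called, against 166 with the replicate block, 20 with only the 6 arrays compared, 55 without the 3 arrays numbered 3, 96 without them and with the block (an alternative chosen after seeing the data), and 17 to 34 with an array left out. Members called there were 0 after median subtraction, after quantile normalization and with only the 6 arrays, and 0 to 1 with an array left out. In the full-length comparison with empty vector, 119 genes were called, against 661 (3.63%) with the replicate block, 187 among genes above the median level, 67 with only the 6 arrays, 361 with the block and without the arrays numbered 3, and 57 to 114 with an array left out. The block also called 2 members there, Fads3 and Dgat2 (0.63, adjusted p = 0.0346, and 0.147 with the block but without the arrays numbered 3), and 3 of the other pathway genes, Slc25a1 (0.50), Cyb5a (0.89) and Cds2 (-0.53). Cyb5a was the 1 such gene called without the arrays numbered 3, with or without the block. Between the receptors the count was 0, and 0 to 1 with an array left out, the 1 being Cidec without full-length array 3. The replicate block changed no other member's call. The cause of these changes was not tested. The number of arrays and low signal, with 8 members below every array's gene median on average, limit what could be detected.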
